A study of Mus musculus with 9 samples.

Results

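The Spink genes encode secreted serine protease inhibitors of the Kazal type. The 7 described here are Spink2, Spink5, Spink8, Spink10, Spink11, Spink12 and Spink14. The 24059 symbols of the expression table hold 6 other Spink genes, and these 7 were chosen with earlier results of the data known. Their mRNA was measured by sequencing in the epididymis, a long convoluted tube through which sperm pass after the testis, maturing on the way. The mice were wild type, of the C57BL/6J strain and 9 months old, and the labels name no treatment. The groups were caput (proximal), corpus (intermediate) and cauda (distal, where sperm are stored), with 3 libraries each. Nothing in the labels tells whether different mice lie behind the 3 libraries, so p-values measure only their spread.

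A Kazal domain is a compact fold held by disulfide bonds between its cysteines. It presents an exposed loop that enters the active site of a serine protease such as trypsin and blocks it in the manner of a poorly cleaved substrate. In the male tract such inhibitors are known for restraining acrosin, the protease stored in the sperm acrosome, and proteases of the luminal and seminal fluids.

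Whole-tissue RNA was sequenced, so fewer cells of a type and less RNA per cell cannot be told apart. Gene counts totalled 2600061 to 6076479 per library, and 1 count stood for 0.1551 to 0.3745 CPM (counts scaled to a common library size, with TMM factors). Levels are given as CPM, with the mean ± SD of 3 libraries. Levels of different genes are compared only as RPKM, which also divides by gene length. Changes are log2 differences from edgeR's quasi-likelihood test. Their standard error (SE) was derived as the absolute change over the square root of the test's F, and is rough where counts are near 0. A change was called where its adjusted p was under 0.05, by Benjamini-Hochberg over the 14168 genes that passed the low-count filter. All 7 Spink genes passed it, Spink14 through its cauda counts alone. The epididymal labels were checked against 7 epithelial markers: Lcn8 stood at 5144 ± 480 CPM in caput against 0.427 ± 0.3 in corpus, and Crisp1 at 924 ± 164 CPM in caput against 42298 ± 3959 in cauda.

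The sequences of the annotation (GENCODE M21, mm10) were used to check the family name. Read through their coding sequences, 6 of the 7 held a strict match to the spaced cysteine signature of a Kazal domain. It occurred 2 times in Spink5 and Spink10 and 1 time each in Spink2, Spink11, Spink12 and Spink14. A strict pattern can miss domains, so these are counts of matches and not of domains. Spink5 was the long one, with 1017 codons and 61 cysteine codons. Spink8 held no strict match, and neither did Spinkl, which is outside the 7. The coding stretches of Spink2 (codons 38 to 86) and Spink8 (codons 44 to 96) from the first to the last cysteine codon are shown, because both genes hold exactly 6 such codons and differ in their spacing. Capitals mark the cysteine codons.

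Spink2: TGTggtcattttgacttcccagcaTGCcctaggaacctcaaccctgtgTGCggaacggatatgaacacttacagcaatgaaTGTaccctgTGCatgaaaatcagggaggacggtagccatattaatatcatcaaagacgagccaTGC
Spink8: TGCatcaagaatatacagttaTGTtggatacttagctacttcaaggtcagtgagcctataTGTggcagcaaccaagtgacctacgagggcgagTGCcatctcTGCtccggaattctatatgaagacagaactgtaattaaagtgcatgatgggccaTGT

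Between its 6 cysteine codons, Spink2 (chr5:77205107-77211471, minus strand) had 7, 7, 10, 2 and 17 codons. Spink8 (chr9:109812280-109826633, plus strand) had 6, 12, 10, 2 and 17. The later gaps were equal in both genes, and the second gap of Spink8 was longer by the difference between 12 and 7. Spink1 and Spink4, other family members with 6 cysteine codons, both had 7 codons in that gap, and Spinkl had 8. Whether the Spink8 protein inhibits a protease was not measured here.

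Each of the 7 genes differed among the segments. Spink2, Spink11 and Spink12 were caput genes, Spink5 was low in corpus, and Spink14 was a cauda gene. Spink8 and Spink10 were low in caput, but from corpus to cauda Spink8 fell and Spink10 rose. Corpus against caput, 2 rose, 4 fell and 1 did not pass, so 6 of 7 were called where 57.7% of all tested genes were (29.5% higher and 28.2% lower). Cauda against corpus, 4 rose, 1 fell and 2 did not pass, or 5 of 7 against a background of 39.2% (18.8% higher and 20.4% lower). Cauda against caput, 4 rose and 3 fell, or 7 of 7 against 54.7% (27.5% higher and 27.2% lower), and over the 3 segments together 7 of 7 passed against 69%. The libraries of the compared segments did not overlap for 6, 5 and 6 of the 7 genes in these contrasts, where the same held for 63.5%, 50.1% and 62.7% of all tested genes. These backgrounds are high, so that a call by itself says little about the family. The median log2 change of the 7 genes was -4.79, 1.47 and 0.28 in these contrasts, beside 0.00, -0.01 and 0.01 over all tested genes. These medians are the values of Spink5, Spink12 and Spink5. The 7 genes changed in both directions in each contrast, so the medians describe no common shift of the family. The 3 contrasts share libraries, since each segment enters 2 of them. The rises in cauda against corpus and cauda against caput include Spink14, which was tested through its cauda counts alone.

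**Figure D1:**
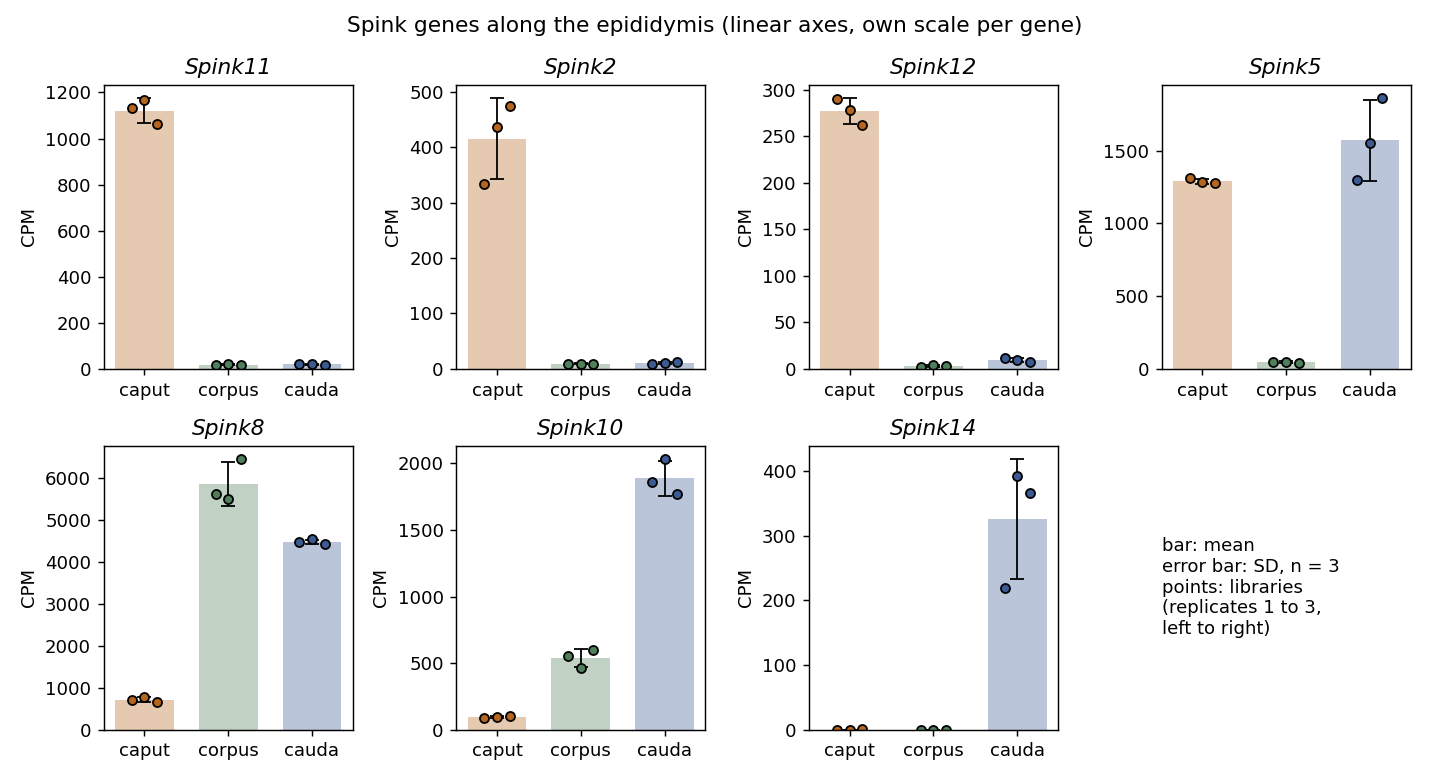
CPM of the 7 Spink genes in each library, with bars for the segment mean and error bars for the SD of 3 libraries, on a linear axis for each gene. Spink11, Spink2 and Spink12 stand high in caput alone, Spink5 in caput and cauda, Spink8 in corpus and cauda, Spink10 and Spink14 in cauda.

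Among the caput genes, Spink11 (chromosome 18, 44190045 to 44196177) was the most abundant per length. It stood at 1134, 1166 and 1063 CPM in the caput libraries, 17.98, 19.5 and 18.8 in corpus, and 19.99, 21.6 and 16.2 in cauda. Every caput library lay far above the other 6, while corpus and cauda overlapped. The fall from caput to corpus was 59.2-fold, a log2 change of -5.89 (SE 0.107, edgeR adjusted p = 9.76e-14). Cauda against corpus gave 0.02 (SE 0.119, edgeR adjusted p = 0.957). Of the 2483 windows of 36 bases, the read length, over all its annotated transcripts, 21 (0.846%) also occur exactly in Spinkl. There they make up 3.53% of the windows. Reads aligned with mismatches are not covered, and how many reads the genes shared was not measured.

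Spink2 is best known from the testis and the sperm head, where it is held to restrain acrosin. Its caput libraries gave 334, 437 and 475 CPM, its corpus libraries 9.74, 8.84 and 9.42, and its cauda libraries 9.40, 11.4 and 11.8. Caput was again apart from all other libraries, and corpus and cauda overlapped. The fall to corpus was 44.8-fold, with a log2 change of -5.49 (SE 0.153, edgeR adjusted p = 4.43e-12), and cauda against corpus gave 0.23 (SE 0.197, edgeR adjusted p = 0.386). Cauda remained below caput by 38.2-fold (log2 -5.26, SE 0.146, edgeR adjusted p = 4.19e-12). Markers of germ cells and sperm, over 14 genes, summed to 140.4 to 157 CPM (caput), 395 to 436 (corpus) and 604 to 901 (cauda). Corpus against caput, 10 of the 12 tested rose, among them the sperm tail gene Odf1 (18.1 ± 1.85 to 93.2 ± 12 CPM), 1 did not pass, and Spata3 fell from 27.9 ± 4.75 to 2.69 ± 1.36 CPM. The part of germ cells and sperm in the Spink2 level was not tested.

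Spink12 (chromosome 18, 44104407 to 44108543) had the widest fall of the 7 from caput to corpus. Its levels were 289.6, 278 and 262 CPM in caput, 2.25, 4.65 and 2.64 in corpus, and 12.1, 9.41 and 7.12 in cauda. No segment overlapped another. Corpus was 79.8-fold below caput (log2 -6.32, SE 0.186, edgeR adjusted p = 7.36e-12). The low corpus level rested on 6, 30 and 14 counts. Cauda was 2.76-fold above corpus (log2 1.47, SE 0.257, edgeR adjusted p = 0.000503) and 28.9-fold below caput (log2 -4.85, SE 0.155, edgeR adjusted p = 1.69e-11).

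Ciliated cell markers fell over the same step as these caput genes. The sum of 5 genes was 54.6 to 75.3 CPM in the caput libraries, 14.7 to 17.2 in the corpus libraries and 16.7 to 21.8 in the cauda libraries, and 4 of 5 fell from caput to corpus. Foxj1, the regulator of motile cilia, went from 28.2 ± 9.42 to 0.291 ± 0.0945 CPM. Macrophage markers were also highest in caput, at 176 to 200.5 CPM against 93.6 to 126 in corpus. Their part in the levels of Spink2, Spink11 and Spink12 was not tested.

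Spink8 was the most abundant of the 7 per length in corpus and cauda. Its caput libraries held 717, 769 and 649 CPM, its corpus libraries 5634, 5507 and 6456, and its cauda libraries 4479.8, 4541 and 4432. The segments were apart from each other, with the corpus libraries highest. Corpus exceeded caput 8.24-fold (log2 3.04, SE 0.0925, edgeR adjusted p = 9.84e-12), and cauda exceeded caput 6.3-fold (log2 2.66, SE 0.0911, edgeR adjusted p = 3.33e-11). Cauda was 1.31-fold below corpus (log2 -0.39, SE 0.0852, edgeR adjusted p = 0.0027). By mean RPKM, Spink8 ranked 44th of all symbols in caput, 4th in corpus and 6th in cauda, and it took 0.579% to 0.64% of all counts in the corpus libraries.

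Spink10 (chromosome 18, 62548911 to 62668070) climbed at both steps. The caput libraries gave 89.1, 92.3 and 106 CPM, the corpus libraries 551, 466 and 598, and the cauda libraries 1864, 2032 and 1769.8. No segment overlapped the next. The log2 change was 2.49 from caput to corpus (SE 0.109, edgeR adjusted p = 3.64e-10) and 1.81 from corpus to cauda (SE 0.101, edgeR adjusted p = 1.55e-08), which made 19.7-fold from caput to cauda. On the opposite strand, Spink7 lies within the span of Spink10 and Spink13 overlaps part of it, and both share 0 exon bases with it. Spink7 had 4 counts over all 9 libraries, and Spink13 stood at 25.2 ± 4.04, 35.8 ± 5.25 and 25.3 ± 2.97 CPM in caput, corpus and cauda. The RPKM values imply a length of 1140 bases for Spink10, scaled to the 4785 bases of the Spink5 transcript, while its annotated transcripts run from 211 to 7817 bases. Its level per length therefore depends on which transcript the authors counted. The same limit holds for Spink11 (749 bases implied, transcripts of 746 to 1891) and Spink14 (568 bases implied, transcripts of 542 to 3957).

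Spink5, which encodes the multidomain inhibitor LEKTI known from the skin, where it restrains kallikreins, was high at both ends of the duct (chromosome 18, 43963235 to 44022501). The caput libraries gave 1309, 1281 and 1277 CPM, the corpus libraries 49.8, 48.8 and 41.4, and the cauda libraries 1302, 1551 and 1858. Corpus was apart from both ends, and caput and cauda overlapped. The fall from caput to corpus was 27.7-fold (log2 -4.79, SE 0.135, edgeR adjusted p = 4.82e-12) and the rise from corpus to cauda 33.8-fold (log2 5.08, SE 0.137, edgeR adjusted p = 3.48e-11). Cauda against caput gave a log2 change of 0.28 (SE 0.11, edgeR adjusted p = 0.043), just past the threshold. That call was lost on leaving out caput replicate 1 (edgeR adjusted p = 0.0839), caput replicate 2 (0.0987), caput replicate 3 (0.0964), corpus replicate 1 (0.0533), cauda replicate 2 (0.0757) or cauda replicate 3 (0.191, with a log2 change of 0.15).

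The summed level of 6 smooth muscle markers was lowest in corpus, as was Spink5, with 259 to 817 CPM there, 2014 to 2125 in caput and 2883 to 5353 in cauda. Most of the caput sum was Actg2, with 1243 ± 108 CPM there against 17.2 ± 9.83 in corpus and 205 ± 67.6 in cauda. From caput to corpus 2 of the 6 fell (Actg2 and Des) and 4 did not pass, and from corpus to cauda 6 of 6 rose. Markers of stratified epithelium, the tissue in which LEKTI is best known, summed over 8 genes to only 8.71 to 12.8, 4.49 to 8.85 and 16.8 to 17.9 CPM. Only Tgm1 and Krt10 had enough counts to be tested. Tgm1 fell at the first step and rose at the next, with 3 ± 1.01 CPM (caput), 0.823 ± 0.848 (corpus) and 11.2 ± 0.668 (cauda), lowest in corpus as Spink5 was. Its rise from corpus to cauda was a log2 change of 3.51 (SE 0.407, edgeR adjusted p = 1.51e-05). Krt10 passed neither step, and was lower in cauda than in caput. Krt13 and Ivl were at 0 counts in caput and cauda, Sprr1a in caput and Dsg1a in corpus. The part of these cells in the Spink5 level was not tested.

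Spink14 (chromosome 18, 44027869 to 44032417) was a cauda transcript. It had 0, 0 and 1 counts in the caput libraries, 0 in every corpus library, and 1286, 1957 and 2203 counts in the cauda libraries. The cauda libraries stood at 219.7, 392 and 365 CPM, a mean of 325 ± 92.6. Against corpus, cauda was at least 1551-fold higher, taking 3 counts over the segment (0.208 CPM) as the floor. Against the 1 caput count the ratio was 3212, with a 95% counting interval from 576 to 126871. Both rises passed the test (edgeR adjusted p = 6.48e-09 against corpus and 3.42e-09 against caput), and corpus against caput did not (edgeR adjusted p = 0.51). Spink14 was tested only because of its cauda counts, so the p-values of these rises add no support beyond the counts. In the fitted changes from corpus to cauda Spink14 ranked 1st of all tested genes in its direction, a fitted value that depends on the 0 counts in corpus.

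Secretory genes of the accessory glands, which join the tract beyond the cauda, were also detected there. The cauda libraries held 188 to 254 CPM of 8 such markers together, the corpus libraries 19.1 to 25.6 and the caput libraries 1.01 to 2.11, and in cauda Svs1, a seminal vesicle secretory gene, made up 202 ± 33.2 CPM. In caput 7 of the 8 had 0 counts and in corpus 5, and Pbsn, a prostate marker, had 0 counts in cauda. From corpus to cauda 3 of the 4 tested rose (Svs1, Svs2 and Svs4). These 3 passed the low-count filter through their cauda counts alone, so their calls add no support beyond the counts. Pate4, which held most of the corpus sum, fell from 21.2 ± 2.49 to 6.35 ± 0.519 CPM (log2 -1.73, SE 0.186, edgeR adjusted p = 7.51e-06). The part of the accessory glands in the Spink14 level was not tested.

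**Figure D2:**
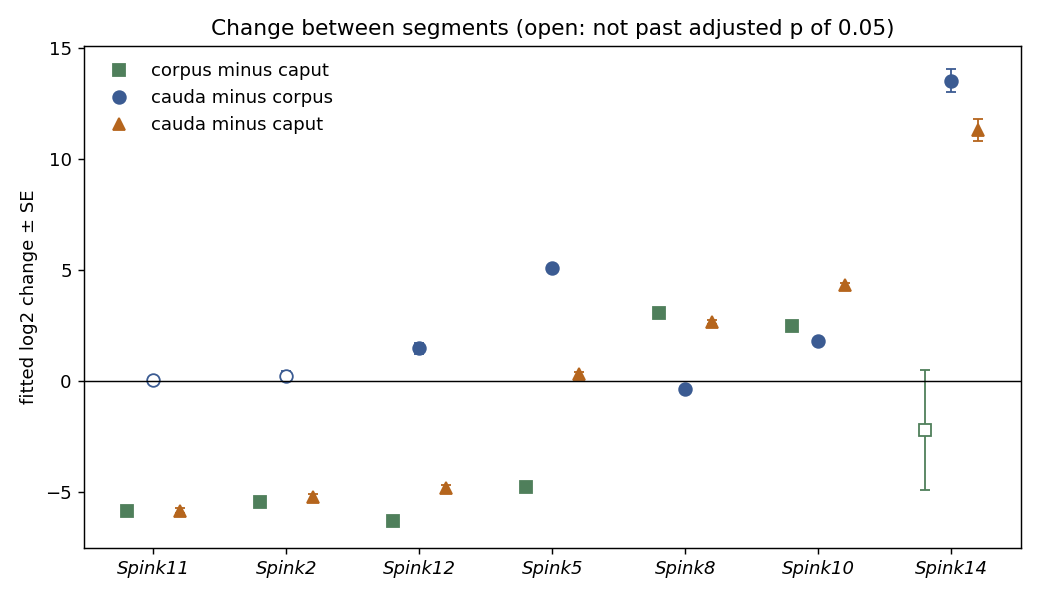
Fitted log2 change ± SE of the 7 Spink genes for each pair of segments, from edgeR over 9 libraries, with open symbols for changes that did not pass an adjusted p of 0.05. Spink11, Spink2 and Spink12 lie near -5 to -6 for corpus against caput. The fitted values of Spink14 and their SE depend on counts of 0 and are no bound.

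The make-up of the 7 genes together differed between the segments. The 7 genes summed to 3909 ± 101 CPM (caput), 6482 ± 568 (corpus) and 8308 ± 351 (cauda), or 0.383%, 0.664% and 0.821% of the gene counts. Per length, the sums were 2032 ± 134, 4544 ± 176 and 4815 ± 125 RPKM, and the corpus libraries (4401 to 4741) and cauda libraries (4675 to 4917) overlapped. The RPKM were taken as deposited, without TMM factors, so these sums are scaled otherwise than the CPM. The library sizes behind the RPKM differ from the count totals, as for corpus replicate 3 (2.12 against 1.78, both relative to caput replicate 1). In caput, Spink11 led at 824 ± 64.1 RPKM, followed by Spink8 at 575 ± 65.4, Spink2 at 269 ± 42.3, Spink12 at 170.1 ± 13.5, Spink5 at 148 ± 6 and Spink10 at 46.1 ± 2.8. No neighbours in that order overlapped, and Spink14 was last. Spink5 held 33% of the caput counts of the 7 genes but 7.3% of their RPKM, the length implied by the RPKM values being longest for Spink5.

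In corpus, Spink8 stood at 4284 ± 164 RPKM and took 94.3% ± 0.325 of the summed RPKM of the 7 genes. Spink10 followed at 235 ± 21.1 RPKM, and Spink11 (12.5), Spink2 (5.5), Spink5 (4.89) and Spink12 (1.78) came far below, with Spink2 and Spink5 overlapping. In cauda the order was Spink8 at 3448 ± 6.45 RPKM, Spink10 at 868 ± 49, Spink14 at 300.2 and Spink5 at 172 ± 32.2, followed by Spink11 (13.5), Spink2 (6.73) and Spink12 (5.59). The libraries of Spink14 and Spink5 overlapped there, as did those of Spink2 and Spink12. Spink8 took 71.6% ± 1.86 of the RPKM of the 7 genes in cauda against 28.2% ± 1.46 in caput. These orders and shares leave out the other Spink genes. Spinkl stood at 60.8 RPKM in corpus and 207 in cauda, and Spink13 at 22.4 and 16.6, both above Spink11 in these segments.

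**Figure D3:**
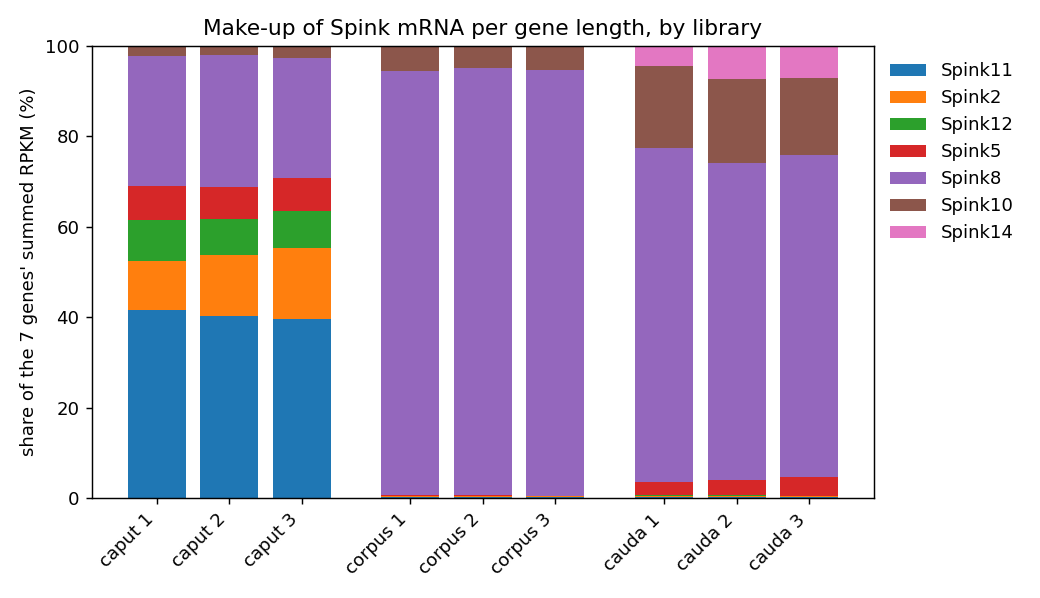
Share of the summed RPKM of the 7 Spink genes held by each gene, in percent, with 1 bar per library. Spink11 holds the largest share in the caput libraries and Spink8 in the corpus and cauda libraries, and Spink14 appears in cauda.

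Of the other Spink symbols in the table, 3 passed the low-count filter. Spinkl, a Spink-like gene, rose at both steps, with 7.33 ± 0.972 CPM (caput), 72.5 ± 1.22 (corpus) and 235 ± 11.1 (cauda) (log2 changes of 3.30 and 1.70, edgeR adjusted p = 3.08e-11 and 1.97e-09). Spink13 was higher in corpus than in caput by a log2 change of 0.48 (edgeR adjusted p = 0.0169). Spink6 had 1 count in caput, 50 in corpus and 52 in cauda, a corpus to caput ratio of 34.5 with a 95% counting interval from 5.92 to 1390.0. Spink4 had 13, 6 and 1 counts in caput, corpus and cauda, and Spink7 had 0, 2 and 2. Spink3, an older symbol of Spink1, had 0 in every library.

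On chromosome 18 the Spink genes lie in clusters, here taken as runs with less than 1000000 bases between neighbours. The larger one (43728082 to 44196177) holds 7 annotated Spink genes, with Spink5, Spink14, Spink12 and Spink11 among them, and the smaller one (62548911 to 62741387) holds Spink10, Spink7 and Spink13. Neighbours in the larger cluster differed in their pattern. Spink14 lies next to Spink5 on the same strand, and both were high in cauda, yet in caput Spink14 had 1 count where Spink5 stood at 1289 ± 16.9 CPM. Spinkl, adjacent to Spink11 on the same strand, was lowest in caput, where Spink11 was highest. Among the genes outside the family, Npy6r, a neuropeptide Y receptor gene beyond Spink11, peaked in corpus at 38.7 ± 0.589 CPM, against 1.75 ± 0.546 in caput and 2.56 ± 0.502 in cauda. Gm10267, between Spink12 and Spinkl, rose from 0.104 ± 0.18 to 6.54 ± 1.15 CPM from caput to corpus. Jakmip2 also rose over that step, from 0.625 ± 0.339 to 3.43 ± 0.926 CPM, whereas Dcp2 and Dpysl3 did not pass in any contrast. Beside the smaller cluster, Napg rose from 58.8 ± 2.05 to 190.4 ± 9.27 CPM and fell to 88.4 ± 8.97 in cauda. Fbxo38 stood at 69 ± 3.12 CPM in the caput libraries, 74.3 ± 11.5 in the corpus libraries and 85.2 ± 6.14 in the cauda libraries. Apcdd1 rose from corpus to cauda, from 8.23 ± 1.95 to 26.9 ± 3.66 CPM. Scgb3a2, Myot, Htr4 and 2700046A07Rik had too few counts to be tested, and Eif3j2 and Gm94 had 0.

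**Figure D4:**
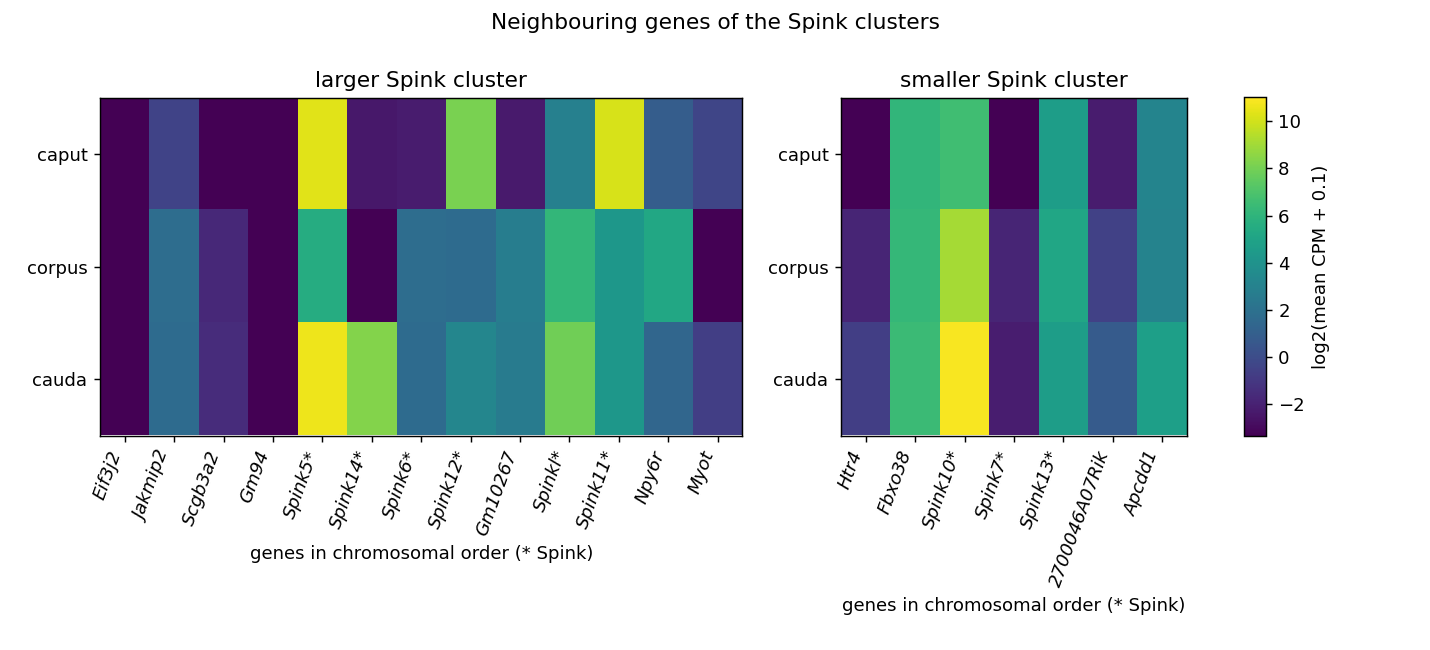
Mean CPM by segment, as log2(mean CPM + 0.1), for the genes of the larger and the smaller Spink cluster and the 2 nearest table genes on either side, in chromosomal order, with Spink genes starred. In the larger cluster Spink5 is high in caput and cauda, Spink12 and Spink11 in caput and Spink14 in cauda.

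Kazal inhibitors act on proteases of the trypsin and chymotrypsin fold, and 42 such genes were listed. Of these, 8 had enough counts to be tested. From caput to corpus 5 rose, 2 fell and 1 did not pass. Plau, the urokinase that activates plasminogen, rose from 15.5 ± 4.93 to 260.2 ± 16.5 CPM (log2 4.05, SE 0.15, edgeR adjusted p = 6.21e-11), and Tmprss2, a membrane serine protease, from 8.94 ± 1.24 to 38.2 ± 5.16. Klk1, Cela1 and Prss8 (prostasin) also rose, while St14, which encodes matriptase, fell from 250.3 ± 17.3 to 130.3 ± 13.1 CPM and Plat, the tissue plasminogen activator, from 32.4 ± 6.44 to 11.7 ± 4.5. From corpus to cauda St14 rose to 186 ± 12.3 CPM, Plau fell to 137 ± 9.08 and Prss8 fell from 151 ± 2.9 to 123 ± 12.9, and 5 did not pass. Cauda against caput, 4 were higher and 2 lower. The median log2 change of the 8 was 0.98, 0.02 and 0.76 in the 3 contrasts, with the medians of all tested genes as above.

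Proteases of this fold also signal by cutting the protease-activated receptors, of which 4 were listed and 2 tested. F2rl1, the receptor that trypsin-like proteases activate, rose along the duct, with a caput level of 26.9 ± 5.81 CPM, a corpus level of 52.1 ± 3.81 and a cauda level of 91.9 ± 5.49. Both steps passed (log2 0.97 and 0.81, edgeR adjusted p = 2.96e-05 and 6.75e-05). F2r, the thrombin receptor, stood at 11.6 ± 4.96, 10.7 ± 2.23 and 17.3 ± 3.57 CPM and did not pass in any contrast.

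Kazal domains also occur in matrix and growth factor binding proteins, and 19 of 23 such listed genes were tested. From caput to corpus 3 rose, 5 fell and 11 did not pass. From corpus to cauda 8 rose, 2 fell and 9 did not pass, and cauda against caput 9 were higher, 4 lower and 6 did not pass. Spock1, a secreted proteoglycan, fell at both steps, with 151 ± 9.89 CPM (caput), 9.54 ± 1.42 (corpus) and 6.38 ± 1.14 (cauda), and Tmeff1 fell from 6.18 ± 2.07 to 0.530 ± 0.195 in corpus. Htra1, a secreted serine protease that carries such a domain itself, was highest in corpus at 74.1 ± 7.56 CPM, against 34.9 ± 4.66 in caput and 32.7 ± 4.61 in cauda. Kazald1 rose from 3.1 ± 1.17 to 6.08 ± 0.856 CPM from caput to corpus. In cauda, Fst (follistatin, which binds activin) reached 18.2 ± 4.3 CPM from 2.2 ± 0.607 in corpus, and Smoc1 118 ± 7.08 from 20.3 ± 8.48.

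Among all tested genes, those nearest in pattern to each Spink gene were found by the root mean square distance between log2 CPM values over the 9 libraries, each gene centred on its own mean. Spink2 was nearest to Slc7a5 (distance 0.22), Lcn2 (0.24) and Ankrd34b (0.28), and Slc7a5 stood at 1725 ± 104 CPM in caput and 38.9 ± 3.12 in corpus. Spink11 was nearest to Creg2 (0.125), Sntn (0.188) and the beta-defensin Defb48 (0.231), and Spink12 to Runx1 (0.284), Clec2l (0.317) and Ffar2 (0.384). Among the 7 Spink genes the closest pair was Spink2 and Spink11, at 0.342. Spink8 had the tightest match of the 7, with Srxn1 (0.11), Smarcd3 (0.111) and Mboat2 (0.128), and Srxn1 stood at 49.5 ± 6.99, 411 ± 17.9 and 294 ± 21.9 CPM. Spink10 was nearest to Ptgds (0.273), the lipocalin-type prostaglandin D synthase, then Gnmt (0.317) and Lrrtm1 (0.324), while Spink8 lay 0.943 away from it. Spink5 was nearest to Nipal4 (0.434), Elf5 (0.483) and Wdr52 (0.49). Nipal4 stood at 11.3 ± 1.73, 0.656 ± 0.165 and 19 ± 6.57 CPM. Spink14 had no close match, and B020014A21Rik (0.823), Gm5615 (1) and Smpx (1.5) came nearest. These distances depend on the prior count of 0.5 for genes near 0 counts. With a prior count of 2, 0 of the 3 genes stayed for Spink2 and for Spink11 and 1 for Spink5.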

How the data were processed

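RNA of the 3 segments was extracted with Trizol from flash-frozen tissue and made into strand-marking KAPA mRNA libraries, read as single ends of 36 bases, per the labels' protocols. Bowtie2 2.2.0, FastQC 0.11.2, CASAVA 1.8.2 and the mm10 build are listed in the submitters' processing notes. How reads were counted (tool, annotation, strand, multiple matches) is not given in the sources used here. Raw counts per gene symbol were deposited by the authors, per the file headers, not normalized. RPKM values (counts divided by a gene length and a library size) were deposited by the authors for the same libraries, per the file headers. Of the 24059 symbols, 4315 had 0 counts in every library.

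Counts were fitted in R 4.3.3 with edgeR 4.0.16 (filterByExpr, TMM, 1 mean per segment over 9 libraries, glmQLFit with robust = FALSE, two-sided tests), which left 14168 tested and 9891 untested genes. The procedure was tested on simulated data. Adjusted p-values cover all tested genes. Alternatives were DESeq2 1.42.0, its type of size factors in edgeR (RLE), no low-count filter, a replicate block and leaving out each library. Counting intervals (95%, for ratios of summed counts) and floors of 3 counts cover counting error only.

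The 7 genes and all lists were chosen with earlier results of these data known. Named were all Spink symbols, per list and contrast up to 2 called genes in each direction with the widest change and at least 5 CPM in the higher segment, the 3 genes nearest in pattern, and the 3 nearest genes on either side of Spink clusters, of which 1 is not reported here. Klk1, Cela1, F2r and some marker genes were named beyond this rule, after their values were seen. Coordinates, coding sequences and 36-base windows are from GENCODE M21 on mm10. Sums of the basal and clear cell markers are in the closing section.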

Additional observations from a re-analysis of the deposited data

How the results depend on the processing

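The number of the 7 Spink genes called per contrast was the reported one under DESeq2, RLE, no low-count filter and the replicate block. Leaving out 1 library gave 6 to 7 calls for cauda against caput, 5 for cauda against corpus, 6 for corpus against caput and 7 over the 3 segments. Over all genes, these fits called 6991 to 7999 for cauda against caput, 4773 to 5568 for cauda against corpus and 7475 to 8324 for corpus against caput. Of 273 single-gene alternatives, 264 stayed on their side of the threshold with no opposite sign, among them Spink14 in corpus against caput, not called, whose change was 0 without caput replicate 3. Another 6 lost the call, all for Spink5 in cauda against caput. In the other 3, the log2 change of Spink11 in cauda against corpus, not called, turned to -0.0043 without corpus replicate 1, -0.0039 without cauda replicate 1 and -0.0629 without cauda replicate 2. Over its alternatives it ran from -0.0629 to 0.136 (largest without cauda replicate 3), with edgeR or DESeq2 adjusted p of 0.461 to 0.991. The fitted log2 change of Spink14 in cauda against caput ran from 10.9 to 13.6. Libraries with the same replicate number correlated at -0.0408 to 0.184 in their deviations from the segment means, over 0.1 in 5 of 9 pairs. In 15 of 18 checks the best match had the same number. The labels do not say what the numbers mark, so pairing is not settled, and the main fit did not use it. The replicate block gave 6 calls for corpus against caput, 5 for cauda against corpus, 7 for cauda against caput and 7 over the 3 segments. Over all genes it called 8446, 5946 and 8089 in the 3 pairwise contrasts, in the same order. Depth limits what can be said of Spink14 in corpus and of Spink3, Spink4 and Spink7.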

Other observations

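Markers of 2 other epithelial cell types were summed beside the Spink genes. Basal cell markers stood at 395 to 444 CPM in caput, 463 to 503 in corpus and 381 to 414 in cauda. Clear cell markers, of the proton-secreting cells, stood at 359.95 to 379.7 CPM in caput, 538 to 558 in corpus and 362 to 387 in cauda. The corpus sum was carried by Car2, a carbonic anhydrase, at 43 ± 5.08, 343 ± 20.2 and 76.5 ± 11.9 CPM in the 3 segments. From caput to corpus 2 of the 5 tested clear cell markers rose (Car2 and Atp6v1g3), 1 did not pass, and 2 fell, Atp6v0d2 from 168 ± 2.87 to 50.5 ± 2.43 CPM and Foxi1 from 111 ± 6.14 to 83.7 ± 4.11. Over the same step 4 of 6 basal cell markers rose, 1 fell (Trp63, 123 ± 13.7 to 70.2 ± 5.58 CPM) and 1 did not pass.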
